A study of Rattus norvegicus with 84 samples.

Results

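Extracellular vesicles (EVs) are membrane-bound particles that cells shed and that carry RNA and protein of the cell they came from. The mRNA cargo of brain-derived EVs was compared here between rats in the chronic phase of stroke, 31 days after the insult, and healthy rats. All libraries belong to the mRNA arm of a series of 84 libraries. The members were the 18782 annotated genes of the 26637 rows of the mRNA count table, read in 3 libraries of the control group at day 31 poststroke and 3 libraries of the healthy group. The other 7855 rows are transcripts outside the annotation, called new genes by the authors.

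The stroke animals were adult male Sprague-Dawley rats of 8 to 12 weeks. Those of the control group had a transient occlusion of the middle cerebral artery for 90 min and received saline through the common carotid artery 3 days later, as the comparator of a group that received human neural stem cells (hNSCs). Healthy rats are labeled only as healthy, with no time point, and no sham-operated or saline-injected healthy group was used here, so that the occlusion, the carotid injection and the time elapsed cannot be told apart in this comparison. EVs were released by enzymatic dissociation from brain tissue (the ipsilateral hemisphere in stroke rats), filtered, pelleted by ultracentrifugation and cleaned on a column. In such bulk material, more EVs of a cell type and more copies of a transcript per EV cannot be told apart.

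Weeks after an infarct, the rim of the lesion holds reactive astrocytes, whose intermediate filaments thicken into a glial scar, and microglia and macrophages that clear myelin and cell debris. Neurons lost to ischemia are not replaced in number, and surviving circuits rewire. Astrocyte filament proteins, complement, antigen presentation and interferon-response genes are textbook marks of the glial response, and synaptic scaffold and ion channel genes are marks of neurons.

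Transcripts of brain cells were found among the annotated genes of every library. Apoe, which encodes the main lipid carrier of the brain, had the highest mean FPKM of annotated genes over the 6 libraries (FPKM is length-corrected, 191 on average), followed by LOC310926 (167), Ptms (124), the calmodulin gene Calm3 (107) and the ferritin heavy chain gene Fth1 (79.9). This rank pools libraries of different summed FPKM. LOC310926 was above Apoe in all 3 healthy libraries (76.2, 125 and 139 against 20.6, 72.8 and 34.6) and in day 31 replicate 3 (287 against 145). Defining markers of neurons were abundant in every library. Map2, a microtubule protein of dendrites, was between 1921 and 3214 CPM (counts scaled to a common library size by edgeR's trimmed mean of M values, TMM), and the myelin gene Mbp was between 862 and 2004 CPM. Several defining markers of lymphocytes, neutrophils and platelets were absent or close to absent. The T cell genes Cd3e and Cd3g, the B cell genes Cd79a and Ms4a1, the neutrophil genes S100a8 and Mpo and the platelet gene Ppbp had no count in any of the 6 libraries, and Lck had 22 counts in the 3 day 31 libraries together and none in healthy ones. Red cell transcripts were present in both groups. Hba1, a hemoglobin alpha gene, was at 99.9, 81.7 and 225 CPM in healthy libraries and at 197, 228 and 175 CPM at day 31. The liver gene Ahsg had 0 counts in healthy libraries and 4 at day 31, Alb had 5 and 69, and Apoa1 had 10 and 30. Of the muscle genes, Ckm and Mylpf had no count in any of the 6 libraries, and Acta1 had 16 counts in healthy libraries and 96 at day 31. Such counts are not scaled for depth. Pooled annotated counts, after TMM, were 9460674 in healthy libraries and 30133970 at day 31. In CPM, Apoa1 was at 0, 0 and 2.81 against 1.17, 1.45 and 0, and Acta1 at 0, 2.66 and 1.13 against 4.44, 3.17 and 0.

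The libraries differed in how much of their depth fell on annotated genes. Totals were 37651652, 17965904 and 21021691 counts at day 31 and 19730248, 21496858 and 28068838 counts in healthy rats, which overlapped. Annotated genes took 41.4%, 43.0% and 30.3% of the counts at day 31. In healthy libraries they took 7.11%, 20.9% and 13.6%. The largest single row outside the annotation took 17.8% to 39.1% of the counts of a library. The annotated shares of the groups did not overlap, and the difference of 24.4 percentage points had an exact permutation p = 0.1 (two-sided), the smallest p that 3 against 3 libraries can give. Counts on annotated genes were accordingly 15587216, 7725688 and 6379318 at day 31 against 1403190, 4498193 and 3829567 in healthy libraries, and 16116, 15635 and 15074 annotated genes had a count against 10109, 14099 and 12966 (exact permutation p = 0.1). Replicate 1 of the healthy group was the shallowest and stood apart from all others, with correlations of log2 CPM between 0.821 and 0.842 against 0.880 to 0.956 for all other pairs. Of the 14515 genes tested, 4486 had no count in it, and results were therefore also computed without it.

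**Figure D1:**
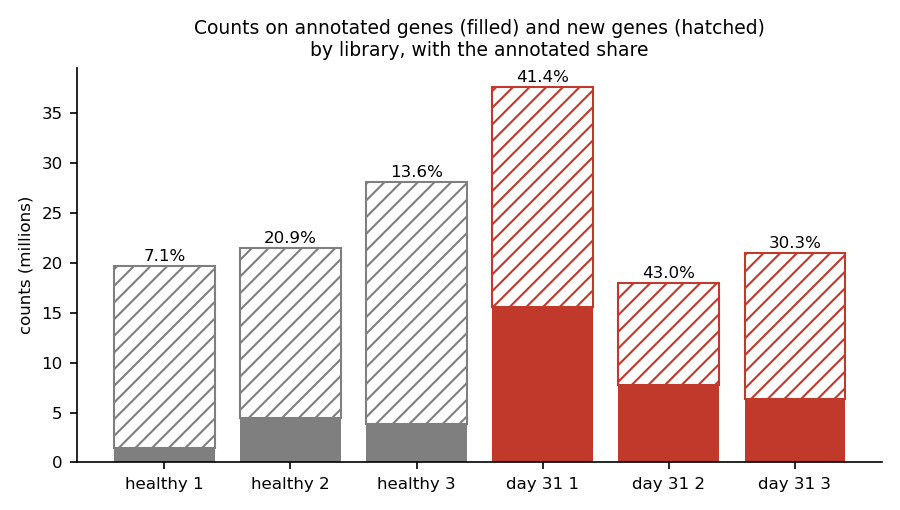
Counts per library (vertical axis) for the 3 healthy (gray) and 3 control day 31 (red) brain EV libraries, split into annotated genes (filled) and new genes (hatched), with the annotated share above each bar. The annotated share was 30.3% to 43.0% at day 31 and 7.11% to 20.9% in healthy rats.

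Gfap was the single annotated gene that passed the test at day 31 (edgeR quasi-likelihood, Benjamini-Hochberg adjusted p under 0.05 and over 1.5-fold). It encodes glial fibrillary acidic protein, the intermediate filament by which reactive astrocytes are recognized. Its level was 695, 504 and 571 CPM in healthy libraries and 3003, 4120 and 2874 CPM at day 31. The lowest day 31 library was above the highest healthy one, and Gfap rose by a log2 fold change of 2.50 (SE 0.36, adjusted p = 0.00591). It was already at 2812, 2715 and 2865 CPM at day 4 poststroke and at 1563, 3014 and 2464 CPM at day 10, and its day 31 level differed from neither by the test (log2 fold change 0.25, SE 0.34, adjusted p = 1 against day 4, and 0.51, SE 0.34, adjusted p = 0.918 against day 10). With 1 healthy library left out, the fold change stayed at 2.59 without replicate 1 and 2.43 without replicate 3, while the adjusted p moved to 0.0706 and 0.15.

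The promoter of Gfap is shown because it belongs to the gene that carried the comparison. It lies on the minus strand at chr10:88361612-88361911 of GRCr8 (RefSeq, a newer build than that of the deposited tables), spans 250 bases before to 50 after the transcription start, and has a GC content of 58.7%. Capitals mark the transcribed bases.

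Gfap: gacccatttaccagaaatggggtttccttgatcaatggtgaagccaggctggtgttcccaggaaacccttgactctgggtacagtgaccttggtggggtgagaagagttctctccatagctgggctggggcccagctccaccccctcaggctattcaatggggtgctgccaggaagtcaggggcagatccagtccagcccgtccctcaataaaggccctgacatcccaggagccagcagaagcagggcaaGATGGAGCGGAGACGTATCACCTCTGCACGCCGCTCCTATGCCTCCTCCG

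As a share of the 14515 tested genes, 1 called higher was 0.00689% and 0 called lower was 0%. At an unadjusted p under 0.05, 769 genes were higher (5.30%) and 267 lower (1.84%) by edgeR. DESeq2 called 128 higher (0.882%) and 40 lower (0.276%), limma-voom called 140 and 64. Of the 128 higher DESeq2 calls, 90 had no count in any healthy library, where a fitted fold change is no measure of size. On the deposited FPKM, limma called 4169 genes higher and 1 lower of 4303, and the median log2 change was 1.33. After rescaling FPKM to the annotated total the median was 0.04 and the calls were 2 and 0. Relative values within the annotated genes are therefore reported below.

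Because so few genes passed, groups of genes are described by a count that uses no model. A gene was higher in the sense used below when its lowest day 31 library exceeded its highest healthy library in CPM, and lower in the opposite case. Of all tested genes, 2750 (18.9%) were higher and 927 (6.39%) lower by this count, and the median log2 fold change was 0.24. These shares are the background for each group, and no group was tested as a set. A gene with no count in any healthy library entered the test only through stroke libraries and could not be lower, which holds for 591 tested genes, of which 414 were higher. Of the 13924 genes with a healthy count 2336 (16.8%) were higher, and counts over such members are given below for the lists with several absent genes. The background rose when a library was left out, most without healthy replicate 2, to 5038 higher (34.7%) and 1874 lower (12.9%). Without healthy replicate 1 it was 3326 and 1638, without healthy replicate 3 it was 3868 (26.6%) and 1467, and without day 31 replicate 3 it was 3601 (24.8%) and 1379. Without day 31 replicate 1 it was 3207 (22.1%) and 1128 (7.77%), and without day 31 replicate 2 it was 3504 (24.1%) and 1322 (9.11%). On FPKM as deposited 12217 genes were higher (84.2%) and 4 lower. On that scale 20 of 21 postsynaptic (95.2%) and 9 of 21 medium spiny neuron genes (42.9%) were higher and none lower. Since most genes were higher there, these counts do not show a turn of these lists. With all 6 libraries thinned to 1403190 annotated counts the background was 2469 higher and 789 lower.

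**Figure D2:**
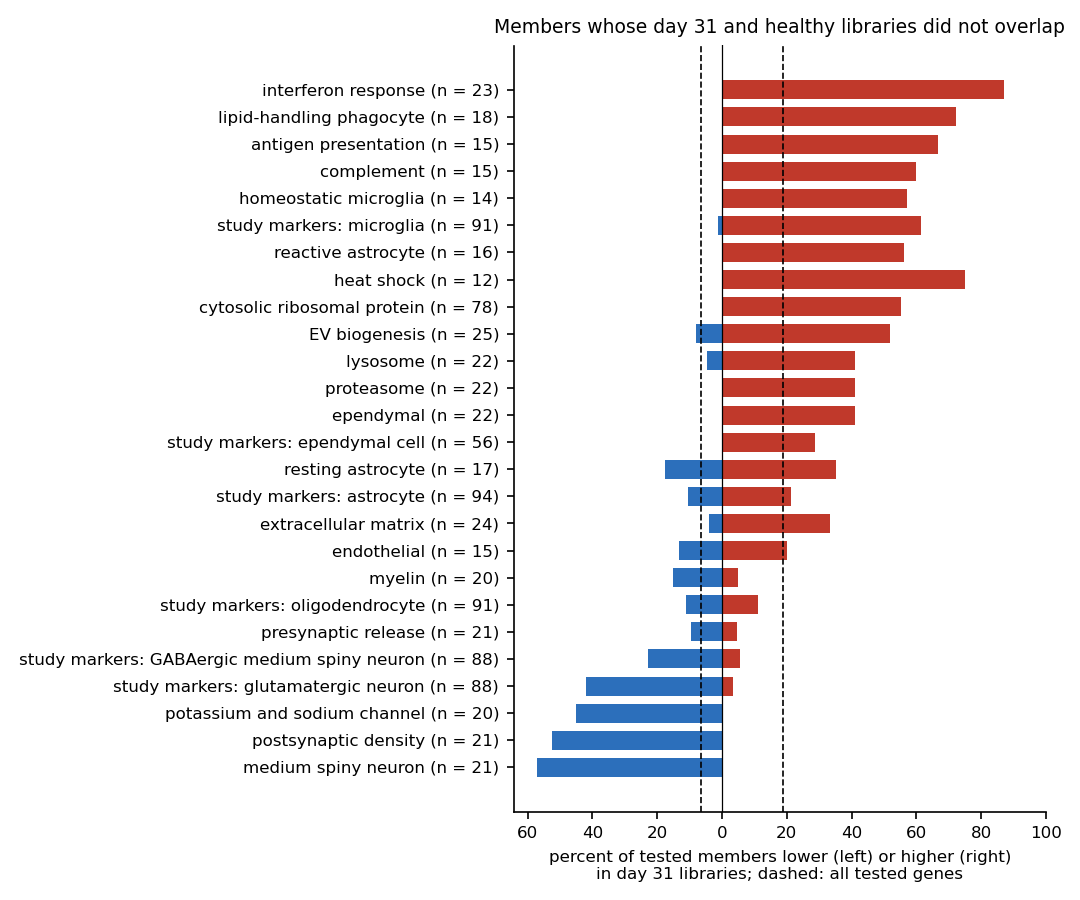
Share of tested members of the gene lists shown (rows, with the number tested) that were higher (red, right) or lower (blue, left) in all 3 day 31 libraries than in all 3 healthy libraries, in percent. Dashed lines mark the shares over all tested genes, 18.9% and 6.39%. Of the lists shown, interferon, phagocyte and heat shock reach furthest to the right, medium spiny neuron and postsynaptic density lists furthest to the left.

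Microglial and macrophage transcripts were higher at day 31. Of 91 tested microglia markers from the study's own list, 56 were higher and 1 lower, with a median log2 fold change of 1.58, and 39 of them had an unadjusted p under 0.05 with a positive sign. Of the 79 with a healthy count 46 (58.2%) were higher. DESeq2 called 11 of them higher, among them Ptprc and Gpnmb, and Spp1, which had no healthy count. Their summed level was 4663, 5203 and 4920 CPM in healthy libraries and 9037, 12661 and 7010 CPM at day 31, to which Apoe contributed the most counts. None passed the edgeR test. Of 14 homeostatic microglia genes 8 were higher and 0 lower (median 1.69). Csf1r, the receptor that microglia need to survive, was at 25.9, 17.9 and 36.3 CPM in healthy libraries and at 88.6, 137 and 67.3 CPM at day 31 (log2 fold change 1.87, SE 0.54, unadjusted p = 0.00197, adjusted p = 0.42 by edgeR). The 2 groups did not overlap. Of the defining markers, Aif1 and Cx3cr1 were also higher in all 3 day 31 libraries, whereas P2ry12 and Tmem119, which mark resting microglia, overlapped (log2 fold change 0.65, SE 1.24, and 0.41, SE 1.08).

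Cmklr1, Blnk, Ptprc and Pld4 were among the 12 higher genes of smallest p, beside Gfap, Hspb1, Card14, Itpkb, Gpd1 and others. The 12 were taken from genes with a mean of at least 5 CPM, and did not hold Itgb2. All 5 genes described here were chosen after their values were seen. Cmklr1, the chemerin receptor of macrophages, was at 0, 0.886 and 0 CPM in healthy libraries and at 25.9, 49.6 and 17.0 CPM at day 31 (log2 fold change 6.24, SE 1.097, adjusted p = 0.0606, edgeR). Blnk, an adaptor of immune receptor signaling that microglia also express, had no count in the healthy group and 899 counts at day 31, and was at least 94.1-fold higher against a floor of 3 counts over the group (adjusted p = 0.0797). Ptprc, which encodes the pan-leukocyte antigen CD45, was at 0, 2.44 and 5.63 CPM in healthy libraries and at 35.8, 45.4 and 21.4 CPM at day 31. Itgb2, the beta chain of leukocyte integrins, and Pld4, a phospholipase-like nuclease of microglia, had no healthy count and were at least 78.5-fold and 44.9-fold higher. None of these 5 passed by edgeR. DESeq2 called Cmklr1 (adjusted p = 2.34e-06) and Ptprc (2.68e-06), and limma-voom called both (0.00654 and 0.0180). DESeq2 also called Blnk, Itgb2 and Pld4, and limma-voom Itgb2 and Pld4. Blnk, Itgb2 and Pld4 had no healthy count and could not be lower, so their calls add no support. Replicate 3 had the lowest day 31 value of Cmklr1, Blnk, Ptprc, Itgb2 and Pld4.

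Genes of lipid-handling phagocytes, the state in which microglia and macrophages take up myelin and lipid, were higher in 13 of 18 and lower in 0 (median 1.59), and in 9 of the 13 with a healthy count. Gpnmb, a glycoprotein of such cells, was at 0, 3.99 and 0 CPM in healthy libraries and at 85.5, 64.2 and 26.2 CPM at day 31 (log2 fold change 5.11, SE 1.41, adjusted p = 0.397). Spp1, or osteopontin, and Lgals3, or galectin-3, had no healthy count and were at least 56.0-fold and 55.7-fold higher. Apoe was at 1729, 2266 and 1591 CPM in healthy libraries and at 3282, 4887 and 2595 CPM at day 31 (log2 fold change 0.95, SE 0.44), and the cathepsin gene Ctsb at 90.5, 65.1 and 49.5 against 153, 145 and 115 CPM (1.02, SE 0.53). Border macrophage genes were higher in 3 of 8 (37.5%), beside 18.9% of all genes, and in 3 of the 6 with a healthy count. Without day 31 replicate 3 there were 5 (62.5%), beside 24.8% of all genes. After thinning, and also on rescaled FPKM, there were 2 (25%), beside 17% and 17.3%. Cd163 was at 0, 0 and 1.69 CPM in healthy libraries and at 8.76, 12.0 and 8.67 CPM at day 31.

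Complement genes were higher in 9 of 15, and in 7 of the 12 with a healthy count (median 1.99, or 1.84 with genes absent from healthy libraries set at their lower bound). C3, the component on which all complement pathways converge, was at 0, 5.54 and 2.53 CPM in healthy libraries and at 62.8, 144 and 54.7 CPM at day 31 (log2 fold change 4.82, SE 1.23, unadjusted p = 0.000698, adjusted p = 0.336). C1qa, part of the recognition complex of the classical pathway, was at 26.6, 12.6 and 18.0 against 60.1, 81.5 and 56.1 CPM. Both were higher in each day 31 library than in any healthy one.

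Antigen presentation genes were higher in 10 of 15 and lower in 0 (median 2.93), and in 5 of the 10 with a healthy count. B2m, the invariant chain of MHC class I, was at 34.5, 49.0 and 41.4 CPM in healthy libraries and at 114, 121 and 88.9 CPM at day 31 (log2 fold change 1.37, SE 0.60, adjusted p = 0.6). Cd74, the invariant chain of MHC class II, was at 0, 31.0 and 5.63 against 58.8, 61.0 and 53.3 CPM (2.20, SE 0.99, adjusted p = 0.632). The 3 day 31 libraries lay close together for both genes, while the healthy ones spread widely for Cd74.

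Interferon-response genes, which cells switch on against viruses and in inflammation, were higher at day 31. Of the 25 listed genes 23 were tested, 20 of these (87.0%) were higher and 0 lower, and the median log2 fold change was 3.07. Of the 21 with a healthy count 18 were higher. No gene of the list passed by edgeR or DESeq2, and 7 had an unadjusted p under 0.05. Mx2, an antiviral GTPase, was at 0, 16.4 and 34.0 CPM in healthy libraries and at 60.2, 96.8 and 74.9 CPM at day 31 (2.15, SE 0.95, adjusted p = 0.616). Irf7, the transcription factor that amplifies type I interferon, was at 0, 0 and 3.66 against 17.6, 29.8 and 12.0 CPM. Stat2, the member with the most counts, did not share this pattern, with 109, 55.8 and 107 CPM in healthy libraries and 56.3, 82.4 and 70.5 CPM at day 31 (log2 fold change -0.37, SE 0.71). The count was 20 without the healthy replicate 1 and 18 after thinning.

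Interferon-response genes are known for a shared element in their promoters, so those of the list were searched for its core letters, GAAANNGAAA, on both strands. RefSeq promoters (GRCr8, 300 bases each) were at hand for 18 of the 25 genes, and 13 of them held a match, against 3.92% of all 33469 promoters. Of the 13, 12 were tested and 11 were higher at day 31, and of the 4 tested genes whose promoter held no match 3 were higher. Of the antigen presentation list, 5 of 14 promoters held a match, those of B2m, Psmb8, Tap1, Tap2 and Tapbp. Of these 5, 3 were higher at day 31, and of the 7 tested genes without a match 5 were higher. The windows of 60 bases below show the element in 3 interferon-response genes and in B2m, with the matching letters in capitals. They lie at chr1:205800053-205800112 (minus strand), chr1:205541763-205541822 (minus), chr16:18255059-18255118 (minus) and chr3:129549160-129549219 (plus).

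Irf7: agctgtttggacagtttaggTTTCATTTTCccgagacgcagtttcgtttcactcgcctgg
Ifitm3: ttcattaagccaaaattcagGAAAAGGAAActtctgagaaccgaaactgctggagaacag
Bst2: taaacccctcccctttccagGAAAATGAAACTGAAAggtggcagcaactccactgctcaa
B2m: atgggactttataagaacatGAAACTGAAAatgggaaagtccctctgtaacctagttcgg

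The match begins 69 bases before the transcription start in Irf7, 44 in Ifitm3, 131 in Bst2, which holds 2 overlapping matches, and 150 in B2m. Ifitm3, a membrane protein that blocks virus entry, had no healthy count and was at 12.7, 12.3 and 5.84 CPM at day 31, at least 35.2-fold higher. Bst2, or tetherin, was at 0, 1.11 and 0 against 4.62, 13.9 and 5.68 CPM. A match is a run of letters and does not show that a factor was bound.

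**Figure D3:**
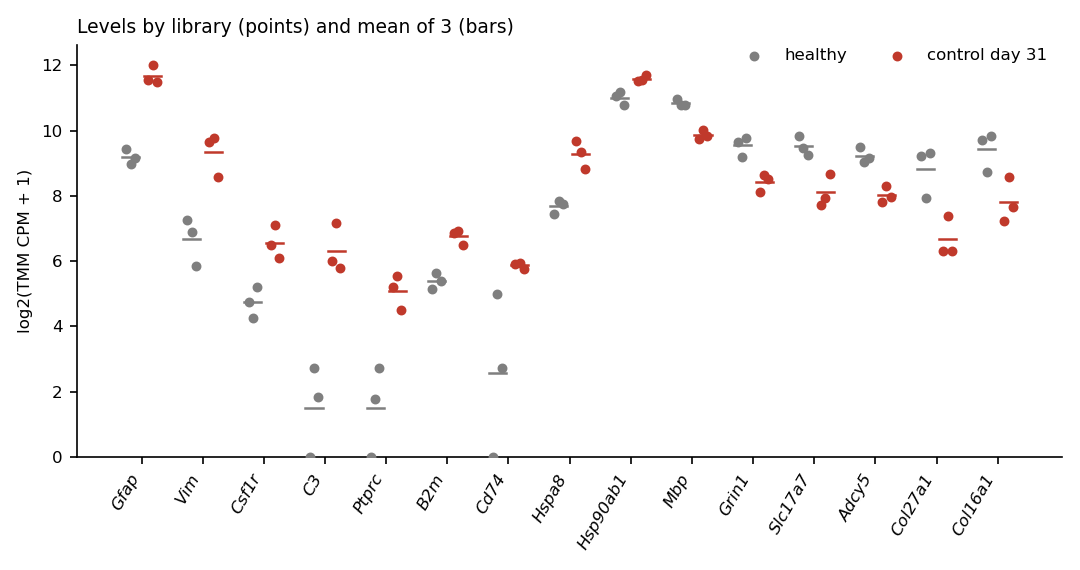
Level of 15 genes in each healthy (gray) and control day 31 (red) library as log2(CPM + 1) on the vertical axis, with horizontal bars for the mean of 3. Gfap, glial and immune genes and heat shock genes sit higher at day 31 and Mbp, synaptic and collagen genes sit lower, without overlap between the groups.

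Of 16 reactive astrocyte genes tested, 9 were higher and 0 lower, with a median of 2.91, or 2.41 with absent genes at their bound. Of the 11 with a healthy count 5 were higher. Gfap was the member that edgeR called. DESeq2 called 5, which were Gfap, Vim (adjusted p = 0.0242), Cd44 (0.0165), Hspb1 (2.66e-06) and Ggta1 (0.0262). Hspb1 and Ggta1 had no healthy count and could not be lower. Vim, the intermediate filament vimentin that accompanies Gfap, was at 152, 118 and 56.6 CPM in healthy libraries and at 806, 875 and 383 CPM at day 31 (log2 fold change 2.67, SE 0.64, adjusted p = 0.262 by edgeR). Hspb1, a small heat shock protein of reactive glia, had no healthy count and was at least 102-fold higher. Cd44, the hyaluronan receptor, was at 0, 3.10 and 0.844 against 32.9, 24.2 and 16.1 CPM. Of 17 genes of resting astrocytes 6 were higher and 3 lower, with a median of 0.29, beside the 0.24 of all genes. Without healthy replicate 2 the counts were 10 (58.8%) and 4 (23.5%), beside 34.7% and 12.9% of all genes. Aqp4, the water channel of astrocyte endfeet, was at 19.4, 201 and 106 against 367, 219 and 239 CPM. The astrocyte marker Slc1a2 was lower without overlap, at 121, 179 and 147 against 103, 82.7 and 117 CPM. The astrocyte marker Aldh1l1 overlapped, at 74.0, 63.8 and 129 against 58.0, 72.0 and 65.1 CPM.

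The study's marker lists put these groups side by side. Next to microglia, ependymal cell markers were higher in 16 of 56 (28.6%) and lower in 0, and vascular cell markers higher in 22 of 87 (25.3%) and lower in 3, beside the background of 18.9%. Of the 47 ependymal cell markers with a healthy count 9 (19.1%) were higher. These counts moved with single libraries. Ependymal cell markers were higher in 30 of 56 (53.6%) without healthy replicate 3, beside 26.6% of all genes. As many were higher without day 31 replicate 3, beside 24.8% of all genes. Vascular cell markers were higher in 39 of 87 (44.8%) without healthy replicate 2, beside 34.7% of all genes. Astrocyte markers were higher in 20 of 94 and lower in 10, and oligodendrocyte markers in 10 and 10 of 91. Without healthy replicate 2 the counts were 37 (39.4%) and 19 (20.2%) for astrocytes and 18 (19.8%) and 23 (25.3%) for oligodendrocytes. Of all genes, 34.7% were higher and 12.9% lower in that setting. Without day 31 replicate 3 the oligodendrocyte counts were 23 (25.3%) and 12 (13.2%), beside 24.8% of all genes that were higher.

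**Figure D4:**
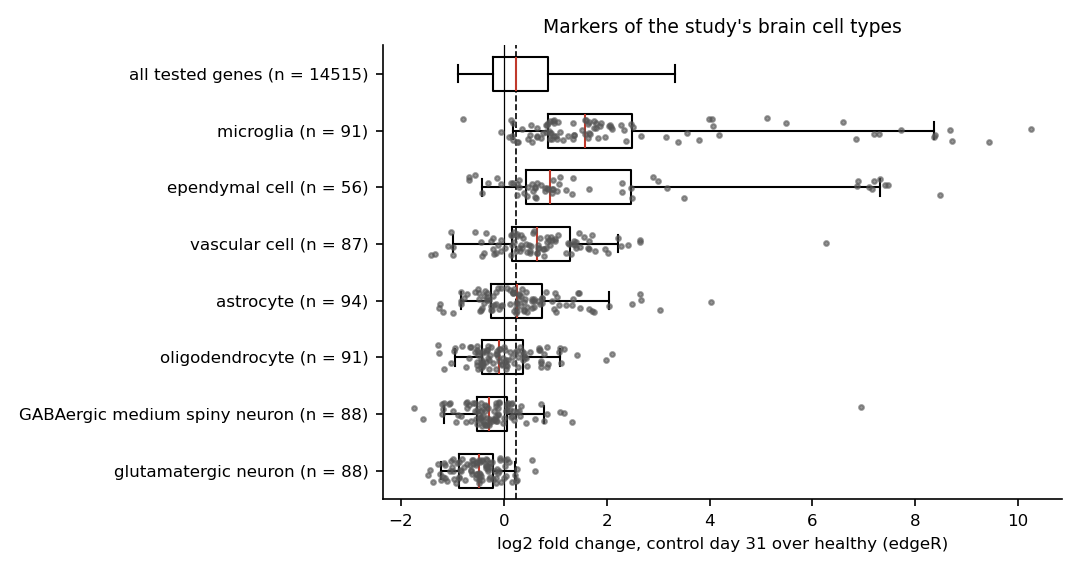
Log2 fold change of control day 31 over healthy (horizontal axis, edgeR) for markers of 7 cell types and for all tested genes. Points are genes, boxes span the quartiles with the median in red, whiskers the 5th to 95th percentile, and the dashed line is the median of all genes, 0.24. Microglia markers have a median of 1.58 and glutamatergic neuron markers of -0.48.

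Markers of some neuron types, though not of all, were lower at day 31. Of 88 glutamatergic neuron markers 37 (42.0%) were lower and 3 higher, with a median of -0.48, and their summed level was 15922, 14754 and 15904 CPM in healthy libraries against 9500, 9948 and 12130 CPM at day 31. Of 88 markers of GABAergic medium spiny neurons, the projection neurons of the striatum, 20 were lower and 5 higher (median -0.28), and of 86 markers of GABAergic interneurons 14 were lower and 4 higher (median -0.27). Cholinergic neuron markers were higher in 17 and lower in 7 of 86 (median 0.0080), and markers of the remaining GABAergic neurons were higher in 7 and lower in 6 of 85 (7.06% lower, median -0.023). Without healthy replicate 2 the higher and lower counts were 12 and 27 for medium spiny neurons (4 and 13 after thinning), 15 and 25 for interneurons, 34 and 13 for cholinergic and 20 and 14 for the remaining GABAergic neurons, and without healthy replicate 1 they were 7 and 26, 6 and 27, 17 and 16, and 10 and 11. With all 6 libraries, 18.9% of all genes were higher and 6.39% lower. Without healthy replicate 2 these background shares were 34.7% and 12.9%, and without healthy replicate 1 they were 22.9% and 11.3%. After thinning they were 17% and 5.44%. None of the members passed the edgeR test, and DESeq2 called 3 of the glutamatergic, 2 of the medium spiny and 1 of the interneuron markers (Cux2) lower, and 1 of the cholinergic markers (Wipf3) higher.

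Postsynaptic density genes were lower in 11 of 21 and higher in 0 (median -0.51). Shank1, a scaffold of excitatory synapses, was at 2038, 2166 and 2210 CPM in healthy libraries and at 1017, 1266 and 1451 CPM at day 31 (log2 fold change -0.78, SE 0.26, adjusted p = 0.483). Grin1, the obligatory NMDA receptor subunit, was at 810, 587 and 876 against 275, 394 and 367 CPM (-1.13, SE 0.31, adjusted p = 0.397). Shank3 was at 885, 598 and 672 against 279, 429 and 382 CPM (-0.98, SE 0.29). For all 3 genes the groups did not overlap. DESeq2 called Grin1 (adjusted p = 0.0178) and Shank3 (0.0330) lower, as did limma-voom (0.0141 and 0.0180). Ppp1r9b, the member with the most counts, overlapped (-0.18, SE 0.22).

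Medium spiny neuron genes were lower in 12 of 21 and higher in 0, with a median of -0.89. Adcy5, the main adenylyl cyclase of the striatum, was at 720, 530 and 569 CPM in healthy libraries and at 223, 318 and 249 CPM at day 31 (-1.20, SE 0.31, unadjusted p = 0.00069, adjusted p = 0.336). DESeq2 called Adcy5 lower (adjusted p = 0.0128), as did limma-voom (0.01825). Arpp21, a cAMP-regulated phosphoprotein, was at 722, 523 and 588 against 334, 329 and 447 CPM. Drd1 was at 35.9, 19.9 and 12.7 against 9.31, 8.58 and 9.46 CPM, while Drd2 overlapped (-0.30, SE 1.78). Counts for the dopamine receptors were low, and thinning reduced the number of lower members from 12 to 9.

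Voltage-gated channel genes were lower in 9 of 20 and higher in 0 (median -0.515). Scn8a, a sodium channel of the axon initial segment, was at 787, 621 and 853 against 289, 398 and 365 CPM (-1.103, SE 0.40, adjusted p = 0.537). Cacna2d3, an auxiliary calcium channel subunit and one of the genes of smallest p among those lower, was at 392.3, 202 and 370 against 93.7, 128 and 102 CPM (-1.57, SE 0.38, adjusted p = 0.277). Lingo1, a neuronal inhibitor of axon regrowth and myelination, was at 356, 378 and 322 against 90.8, 102 and 199 CPM (-1.43, SE 0.38). Both were picked after their values were seen. DESeq2 called Cacna2d3 (adjusted p = 0.00236) and Lingo1 (0.0229) lower, as did limma-voom (0.0155 and 0.0216).

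Of 21 presynaptic genes 2 were lower and 1 higher (median -0.15). Without day 31 replicate 3 as many as 9 (42.9%) were lower, where 1379 of all 14515 genes were lower. Without healthy replicate 2 there were 5 higher (23.8%), beside 34.7% of all genes. The postsynaptic count stayed at 11 to 14 lower when any of the 6 libraries was left out. Slc17a7, the vesicular glutamate transporter, was among the lower ones, at 913, 712 and 608 against 208, 245 and 403 CPM (-1.38, SE 0.39, adjusted p = 0.404). Snap25, of the vesicle fusion machinery, was at 390, 803 and 591 against 845, 523 and 1043 CPM, with overlapping groups (0.43, SE 0.46). Bsn and Pclo, scaffolds of the active zone, overlapped as well (-0.24, SE 0.23, and 0.11, SE 0.28). Neurofilament and microtubule genes were higher in 2 and lower in 1 of 16. Without day 31 replicate 3 there were 7 lower (43.8%). On rescaled FPKM there were 6 lower (37.5%), beside 7.61% of all genes. Map1b was at 3515, 5132 and 4821 CPM in healthy libraries and at 5074, 4834 and 5835 CPM at day 31. The difference between the postsynaptic and presynaptic lists was not tested.

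Col27a1, Col11a2 and Col16a1 were picked after their values were seen and did not pass the edgeR test. DESeq2 called all 3 lower (adjusted p = 7.89e-05, 0.00018 and 0.00993), as did limma-voom (0.0141, 0.00995 and 0.0426). Without a filter on low counts edgeR called Col27a1 (adjusted p = 0.0411). Col27a1, a fibrillar collagen, was at 594, 245 and 642 CPM in healthy libraries and at 78.5, 165 and 78.9 CPM at day 31 (-2.20, SE 0.43, adjusted p = 0.0797). Col11a2 was at 4542, 1440 and 4117 against 310, 1234 and 452 CPM (-2.34, SE 0.49, adjusted p = 0.15), and Col16a1, a fibril-associated collagen, at 843, 427 and 918 against 149, 385 and 200 CPM (-1.57, SE 0.38, adjusted p = 0.277). For all 3, replicate 2 of the healthy group was the lowest of its group and replicate 2 of day 31 the highest of its own, and the groups stayed apart by a small margin. Of the extracellular matrix list, 8 of 24 were higher and 1 lower (median 1.11), with 6 and 4 at an unadjusted p under 0.05. The lower count rested on single libraries. Without day 31 replicate 2 there were 7 lower (29.2%), beside 9.11% of all genes. Without healthy replicate 2 there were 6 lower (25%) and 13 higher (54.2%), beside 12.9% and 34.7% of all genes. Bgn, the proteoglycan biglycan of scar matrix, was at 0, 12.0 and 9.28 against 89.4, 59.7 and 40.7 CPM (3.07, SE 0.77, adjusted p = 0.327). Timp3, a matrix-bound inhibitor of metalloproteinases, was at 18.0, 58.7 and 32.1 against 184, 131 and 105 CPM (1.93, SE 0.49).

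Of 20 myelin genes 1 was higher and 3 were lower, with a median of -0.05. Without healthy replicate 2 there were 6 higher and 4 lower, beside 34.7% and 12.9% of all genes. Without day 31 replicate 2 there were 1 and 6, beside 24.1% and 9.11% of all genes. Mbp, myelin basic protein, was lower in all 3 libraries, at 2004, 1749 and 1769 against 862, 1046 and 920 CPM (-0.97, SE 0.39, adjusted p = 0.571). Endothelial genes were higher in 3 and lower in 2 of 15, beside 18.9% and 6.39% of all genes. Without day 31 replicate 1 the endothelial counts were 3 and 4, beside 22.1% and 7.77% of all genes. Mural cell genes were higher in 0 and lower in 1 of 9. Without healthy replicate 2 the mural counts were 2 (22.2%) and 1 (11.1%), beside 34.7% and 12.9% of all genes.

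Heat shock genes were higher in 9 of 12 (75.0%) and lower in 0, with a median of 0.82. These chaperones refold proteins under stress and are also constant cargo of EVs. Hsp90ab1, a constitutive HSP90, was at 2143, 2329 and 1746 CPM in healthy libraries and at 2919, 3023 and 3303 CPM at day 31 (0.57, SE 0.23, adjusted p = 0.558). Hspa8, a constitutive HSP70 used as an EV marker protein, was at 175, 229 and 213 against 813, 648 and 451 CPM (1.63, SE 0.52, adjusted p = 0.483). For neither gene did the groups overlap.

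The heat shock element is the site that heat shock factors recognize. In the promoters of 10 of the 13 genes, its letters GAANNTTCNNGAA or their complement occurred in 5, against 0.798% of all promoters. The promoters of Hspd1 and Hspe1 lie on opposite strands of the same region and share their matches, so these are not 5 separate sites. Of these 5 genes 3 were higher at day 31, as were 5 of the 5 tested genes whose promoters held no match. The window of Dnaja1, a co-chaperone of HSP70, lies at chr5:60638393-60638452 (plus strand), begins its match 9 bases after the start, and is shown with that of Hspa8 at chr8:50080281-50080340 (plus). Capitals mark the match.

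Dnaja1: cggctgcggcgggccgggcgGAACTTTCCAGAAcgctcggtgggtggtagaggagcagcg
Hspa8: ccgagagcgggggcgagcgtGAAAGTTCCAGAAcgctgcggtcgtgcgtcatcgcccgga

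Dnaja1 was at 99.2, 137 and 84.7 CPM in healthy libraries and at 270, 185 and 224 CPM at day 31. Among reactive astrocyte genes, the AP-1 letters TGANTCA occurred in 3 of 20 promoters against 7.33% of all, and that of Gfap held none. The PU.1 letters GAGGAAGT occurred in 0 of 9 promoters of homeostatic microglia genes, against 2.42% of all.

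Cytosolic ribosomal protein genes were higher in 43 of 78 (55.1%) and lower in 0, with a median of 0.86 and a summed level of 3062, 3997 and 3299 CPM in healthy libraries against 5307, 6538 and 6105 CPM at day 31. Rps6 was at 62.5, 85.1 and 90.3 against 137, 140 and 147 CPM. Rpl35, the member with the most counts, overlapped at 213, 228 and 403 against 314, 208 and 294 CPM. Counts of ribosomal protein genes can be split with their pseudogenes, so single members are uncertain. Proteasome genes were higher in 9 of 22 and lysosome genes in 9 of 22 with 1 lower. Without healthy replicate 2 the lysosome counts were 15 (68.2%) and 2 (9.09%), beside 34.7% and 12.9% of all genes. The lysosomal gene with the most counts, Psap, overlapped (0.27, SE 0.35). Genes of EV formation and cargo were higher in 13 of 25 and lower in 2 (median 0.62). Nuclear genes of oxidative phosphorylation were higher in 6 of 25 (24.0%), beside 18.9% of all genes. Without healthy replicate 2 or without day 31 replicate 2 they were higher in 13 (52.0%), beside 34.7% and 24.1% of all genes. Mitochondrially encoded genes were not analysed here.

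Of the markers of T and NK cells, B cells, neutrophils and platelets, few were tested. Choroid plexus genes were higher in 1 of 11, and in 5 (45.5%) without healthy replicate 2, beside 34.7% of all genes. Ttr, a transport protein that the choroid plexus secretes, was at 228, 222 and 44.5 against 102, 211 and 106 CPM. Ependymal genes were higher in 9 of 22 (40.9%), and Dnah9, the member with the most counts, overlapped. Without healthy replicate 3 there were 14 (63.6%), beside 26.6% of all genes, and after thinning 5 (22.7%), beside 17%. T and NK cell genes were tested for 2 of 14, and Cd4, which rat macrophages and microglia also express, was at 0, 17.5 and 9.57 against 42.5, 59.1 and 28.5 CPM. Neutrophil genes were tested for 2 of 11, with Csf3r at 0, 1.77 and 3.66 against 19.1, 26.8 and 7.25 CPM, platelet genes for 3 of 11 and B cell genes for 1 of 8, which was Blnk. Their summed levels at day 31 were 44.9, 60.5 and 30.4 CPM for T and NK cells and 19.4, 26.8 and 7.25 CPM for neutrophils, of which Cd4 and Csf3r made up most. Skeletal muscle genes were higher in 0 and lower in 1 of 7, red cell genes higher in 1 of 8, and liver genes in 1 of 4. Without healthy replicate 3, 4 red cell genes (50%) were higher, beside 26.6% of all genes. The part of these cell types in the results above was not tested.

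To place day 31 within the course of stroke, it was compared with the saline-treated control groups at day 4 and day 10 in the same fit. Day 31 was higher than day 4 in 17 genes (0.117% of 14515) and lower in 19 (0.131%), and higher than day 10 in 14 (0.0965%) and lower in 8 (0.0551%). Both comparisons use the same 3 day 31 libraries. Without day 31 replicate 1 or 3 the day 10 comparison had no call in either direction, and against day 4 there was 1 higher and 1 lower.

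Igf2, a growth factor made by leptomeninges and choroid plexus, was at 266, 169 and 203 CPM at day 4, at 1110, 1362 and 1829 CPM at day 10 and at 2559, 2507 and 1486 CPM at day 31, against 1496, 640 and 1015 CPM in healthy rats. It was higher at day 31 than at day 4 by a log2 fold change of 3.36 (SE 0.52, adjusted p = 0.00628). Gprasp1, a sorting protein for G protein-coupled receptors in neurons, was at 690, 623 and 765 CPM at day 31, at 119, 175 and 256 CPM at day 4 and at 246, 111 and 245 CPM at day 10 (1.92, SE 0.31, adjusted p = 0.0109, and 1.79, SE 0.31, adjusted p = 0.0171). Healthy libraries lay between, at 350, 515 and 356 CPM.

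Samd1, a chromatin reader of unmethylated CpG islands, showed the opposite order. It was at 130, 145 and 151 CPM at day 31 against 713, 577 and 588 CPM at day 4 (-2.14, SE 0.30, adjusted p = 0.00365), and at 186, 192 and 173 CPM in healthy rats. Ncan, a proteoglycan of perineuronal nets and scar, was lower at day 31 than at day 4 (log2 fold change -1.62, SE 0.28, adjusted p = 0.0124). For both genes the 3 day 4 libraries were above all healthy and day 31 ones.

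Mbp was lower at day 31 than at day 10, when it was at 1886, 10113 and 2886 CPM (-2.40, SE 0.41, adjusted p = 0.0171). The day 10 value of replicate 2 was far above the others, and without that replicate the log2 fold change was -1.36 (adjusted p = 0.0556). Col16a1 was at 1646, 1497 and 1217 CPM at day 4 and at 1016, 1612 and 1929 CPM at day 10, above day 31 by the test in both cases (-2.57, SE 0.40, adjusted p = 0.00628, and -2.63, SE 0.40, adjusted p = 0.0135). Col5a1 and Col27a1 were lower at day 31 than at day 10 (-2.37, SE 0.41, and -2.49, SE 0.43, both adjusted p = 0.0171). Hsp90ab1 was higher at day 31 than at either earlier day (1.18, SE 0.23, adjusted p = 0.0285, and 1.23, SE 0.23, adjusted p = 0.0237), at 1494, 1192 and 1386 CPM at day 4 and 1100, 1719 and 1124 CPM at day 10.

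**Figure D5:**
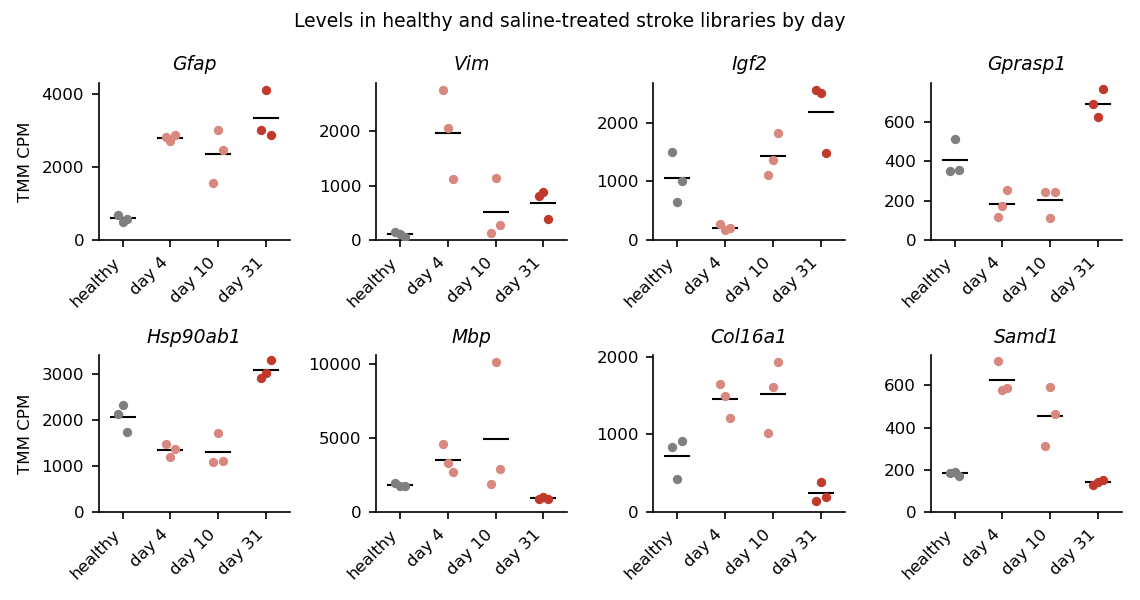
CPM (vertical axes, each from 0) of 8 genes in healthy rats and in saline-treated rats at day 4, 10 and 31 poststroke, with points for libraries and bars for the mean of 3. Gfap is high on all 3 days, whereas Igf2, Gprasp1 and Hsp90ab1 are higher and Mbp, Col16a1 and Samd1 lower at day 31 than at day 4.

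Microglial and immune lists had no called member against either day. Their median log2 fold change of day 31 over day 4 was -0.64 for homeostatic microglia, -1.37 for phagocyte genes and 1.101 for interferon-response genes, and over day 10 it was -1.13, -1.61 and -1.03, beside 0.11 and 0.12 for all genes. Gpnmb was at 85.5, 64.2 and 26.2 CPM at day 31 against a mean of 312 CPM at day 4 and 224 CPM at day 10. The 3 libraries of hNSC-treated rats at day 31 had a mean of 2783 CPM for Gfap, 893 for Mbp and 133 for Samd1, beside 3332, 943 and 142 in the control group of that day.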

How the data were processed

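EVs were isolated from brain tissue, and RNA libraries were made with a stranded total RNA kit. Per the methods, the authors aligned reads with Bowtie2 to Rnor_6.0 and estimated FPKM with StringTie, summed over the transcripts of a gene. The tables also hold rows named as new genes, and how these were made is not given in the sources used here. The authors deposited a table of raw counts and a table of FPKM for the mRNA arm. The counting tool, its strand setting and the versions of Bowtie2 and StringTie are not given in the sources used here, so overlapping and antisense genes, and genes with near-identical copies, are uncertain. No column of fold changes or p-values by the authors was used.

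Counts of annotated genes in the 21 brain libraries (7 groups of 3) were fitted with edgeR 4.0.16 in R 4.3.3 (TMM, filterByExpr by group, quasi-likelihood test), without covariates. Calls needed a change of over 1.5-fold and an adjusted p below 0.05 (Benjamini-Hochberg, 14515 genes). SE is the size of the log2 fold change divided by the square root of F. Each group has 3 libraries, and p-values measure the spread between these samples. Intervals and floors (3 counts over the healthy group) cover counting error only.

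The named genes were called genes with non-overlapping groups, up to 4 called members of each list or else the 2 with the most counts, the 5 of highest FPKM, defining cell type markers, and the 5 of smallest adjusted p against each earlier day. Other named genes were chosen after their values were seen. The members and lists were chosen with earlier results of these data known, and the study's marker lists came from its own supplementary tables. DESeq2 1.42.0, limma 3.58.1 (voom, and FPKM with pseudocounts of 1 and 0.1 at a mean FPKM of at least 1), other normalizations, filters, thinning and leaving out each library were tried. The edgeR script was tested on simulated data. Results for some items are not reported here.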

Additional observations from a re-analysis of the deposited data

Results flagged for a closer look

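The differences between day 31 and the earlier days with the smallest adjusted p (edgeR) are flagged because the change from the same healthy rats differed between days by a test of the difference itself, the contrast of the 2 days. Against day 4 the log2 differences were -2.14 for Samd1, -2.57 for Col16a1, 3.36 for Igf2, 1.92 for Gprasp1 and -1.62 for Ncan. Against day 10 they were -2.63 for Col16a1, -2.40 for Mbp, 1.79 for Gprasp1, -2.37 for Col5a1 and -2.49 for Col27a1. Both sets use the same 3 day 31 libraries. All 5 differences from day 10 lost their call without day 31 replicate 1 (adjusted p from 0.0865 to 0.122), without day 31 replicate 3 (0.197 to 0.248) and in a fit of the 2 groups alone (0.0997 to 0.173). Against day 4, Samd1 stayed called with any 1 of the 6 libraries left out, while Col16a1, Igf2, Gprasp1 and Ncan each lost the call in at least 1 such fit (adjusted p up to 0.0999, 0.0624, 0.117 and 0.112). On the deposited FPKM scale, Samd1 and Ncan against day 4 and Col16a1, Mbp, Col5a1 and Col27a1 against day 10 were not called at either pseudocount. Single outlying samples were not tested.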

How the results depend on the processing

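Higher and lower calls at day 31 against healthy, day 4 and day 10 were 128 and 40, 133 and 102, and 79 and 95 with DESeq2, and 140 and 64, 873 and 401, and 228 and 36 with limma-voom. On log2(FPKM + 1) they were 4169 and 1, 2204 and 23, and 3874 and 3. On log2(FPKM + 0.1) they were 3956 and 1, 298 and 4, and 3507 and 3. With every gene that had an FPKM value they were 8146 and 1, 3840 and 22, and 7351 and 3. FPKM rescaled to the annotated total, an alternative chosen after seeing the data, gave 2 higher calls against healthy. Without a filter on low counts there were 4 and 2 calls against healthy, and 15 lower calls against day 10. A fit of only the groups compared gave 3 higher calls against healthy, 582 and 307 against day 4, and 0 and 0 against day 10. At an unadjusted p under 0.05 and over 1.5-fold there were 762 and 260, 937 and 429, and 949 and 364. The annotated share of summed FPKM differed by 12.7 percentage points, beside 24.4 for counts.

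Leaving out 1 library gave 0 to 4 higher and 0 to 3 lower calls against healthy (0 higher without healthy replicate 1 or 3), 0 to 5 and 1 to 12 against day 4, and 0 to 37 and 0 to 26 against day 10. The difference in annotated share was 20.96 to 28.31 percentage points. The replicate block gave 29 lower calls against day 4 and 9 higher against day 10, and 1 and 0 against healthy. The numbers did not pair the libraries (correlations of deviations of -0.11, -0.15 and -0.05 between same-numbered ones).

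The median log2 change of all genes was 1.33, 2.07 and 0.57 in the 3 FPKM settings, and some genes that were lower within the annotated counts turned positive there. Col11a2 stayed negative (-0.17, and -0.20 at a pseudocount of 0.1), as did Col27a1 at that pseudocount (-0.021). On log2(FPKM + 1), with or without the filter, the values were 0.91 for Stat2, 2.01 for Rpl35, 0.79 for Grin1, 0.86 for Shank3, 0.58 for Adcy5, 0.42 for Cacna2d3, 0.53 for Lingo1, 0.017 for Col27a1, 0.40 for Col16a1 and 1.09 for Mbp. On log2(FPKM + 0.1) they were 1.67 for Stat2, 2.09 for Rpl35, 0.93 for Grin1, 1.08 for Shank3, 0.72 for Adcy5, 0.56 for Cacna2d3, 0.77 for Lingo1, 0.48 for Col16a1 and 1.13 for Mbp. Leaving out 1 library moved Rpl35, near 0, between -0.26 and 0.26, and it was also positive without composition factors (0.014), without day 31 replicate 2 (0.099) and without healthy replicate 3 (0.26). Gfap kept its direction in 19 settings (2.31 to 4.57), with an adjusted p of at most 0.15. The cause of these differences was not tested. Of the tested genes, 4486 had no count in healthy replicate 1, which had 1403190 counts on annotated genes.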
